A study of Mus musculus with 27 samples.

Results

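The genes described here are those for Wnt ligands, for the Frizzled (Fzd) receptors and for the Dickkopf (Dkk) and secreted Frizzled-related (Sfrp) inhibitors. They were taken by symbol from the expression tables, which gave 37 of the 20156 genes listed, namely 19 Wnt, 10 Fzd, 4 Dkk and 4 Sfrp genes. Wnt proteins are secreted lipid-modified ligands that bind Frizzled receptors, and in the canonical branch this also engages the co-receptors Lrp5 and Lrp6 and stabilizes β-catenin, which then acts with Tcf/Lef factors at target genes. Dkk proteins act mainly at Lrp5 and Lrp6, whereas Sfrp proteins resemble the ligand-binding domain of the Frizzled receptors and bind the ligands outside the cell. In mouse embryonic stem cells canonical Wnt signalling is known to favour self-renewal, and many Wnt genes are classic targets of Polycomb repression.

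The study followed reprogramming of mouse fibroblasts through a stalled intermediate to induced pluripotent stem cells, with 6 RNA-seq and 21 chromatin libraries. MEFs were embryonic fibroblasts from E13.5 embryos, labelled as of CBA/CaJ and C57BL/6J background and bred, by the study's methods, from transgenic males of these strains and 129Sv/Jae females, hemizygous for an Oct4-GFP transgene and for a Rosa26 allele, and were used for RNA-seq at no more than 3 passages. Pre-iPSCs and iPSCs were made from such MEFs with the 4 Yamanaka factors delivered by retrovirus, came from 2 stable clones and the iPSCs derived from them, and were grown on MEF feeder layers in medium with leukaemia inhibitory factor, for 6 passages where RNA was taken. The clone behind each library is not given in the labels. Each of the 3 cell types had 2 RNA-seq libraries and 2 chromatin libraries each for histone H3, H3K4me3 (a mark of active and poised promoters) and H3K27me3 (the Polycomb mark), and 1 library for H3K9me3, a heterochromatin mark. Chromatin was cut into mononucleosomes with micrococcal nuclease, with another amount and time of enzyme for MEFs than for pre-iPSCs and iPSCs, so that digestion and cell type cannot be told apart in any chromatin comparison with MEFs.

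The summed level of 13 fibroblast genes was 5248 and 11376 FPKM (fragments per kilobase of transcript, scaled to the library) in the MEF libraries, 507 and 546 in the pre-iPSC and 272 and 398 in the iPSC libraries, and none of these genes was listed at 0 in any library. Pre-iPSCs thus held 6.10 and 6.56% and iPSCs 3.27 and 4.78% of the MEF mean of this list, which also marks the feeder cells. S100a4 was a large part of these sums, and without it pre-iPSCs held 8.03 and 2.56% and iPSCs 5.94 and 6.96% of the MEF mean. Of the 13 genes 11 were below both MEF libraries in every other library, and Dcn and Lum were not, with 5.88 and 8.59 FPKM of Lum in iPSCs beside 0.348 and 5.84 in MEFs. The summed level of 12 pluripotency genes was 0.147 and 1.03 FPKM in MEFs, where 10 and 8 of them were listed at 0, 927 and 3709 in the pre-iPSC and 2484 and 2419 in the iPSC libraries. Pou5f1 and Sox2, which are among the delivered factors, made up most of the pre-iPSC sums, and the other 10 genes summed to 277 and 354 FPKM in pre-iPSCs and 1833 and 1905 in iPSCs. Dppa3 was listed at 0 in both pre-iPSC libraries, Nanog in replicate 2 and Dppa4, Tcl1 and Zfp42 in replicate 1, and none of the 12 was at 0 in iPSCs. The summed level of 5 epithelial genes was 4.93 and 5.79 FPKM in the MEF libraries, 76.5 and 34.2 in the pre-iPSC and 136 and 167 in the iPSC libraries. That of 4 haematopoietic genes was 10.6 and 4.10, 44.5 and 94.2, and 15.5 and 21.2 FPKM in the same order, mostly Laptm5 outside MEFs. Ptprc, which defines these cells, was at or below 0.240 in every library, while Cd68 was at 2.12 to 10.1 FPKM. Csf1r was at 3.33 and 1.02 FPKM in the MEF libraries and at most 0.730 elsewhere. Of 3 endothelial genes, Tek was at 0.0210 and 0.0325 FPKM in the MEF libraries, 12.7 and 3.94 in the pre-iPSC and 0.715 and 0.921 in the iPSC libraries, and Tie1 and Cdh5 were at or below 0.675 and 0.106 in every library. Lists of 4 primitive endoderm and 4 trophoblast genes summed to 0.998 to 3.67 and 0.984 to 9.46 FPKM. The part of these cell types in the changes of the Wnt pathway genes was not tested. Reads in called nucleosomes numbered 12007350 to 15222040 per histone-mark library and 67362868 to 108211816 per H3 library. Among the H3 libraries, replicate 1 of pre-iPSCs and of iPSCs stood apart. Their promoter medians were 0.550 and 0.408 RPKM (reads per kilobase, scaled to the library), against 0.204 to 0.238 in the others.

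Expression and H3K27me3 moved in opposite directions at 3 genes in comparisons that passed the tests described further on. Wnt5a and Dkk3 were highest in MEFs and gained H3K27me3 reads, and Fzd10 was nearly silent in MEFs and lost them. These are few, since 2 of the 32 members tested for H3K27me3 were called in each comparison with MEFs, where 8.1 and 11.2% of all promoters were in pre-iPSCs and iPSCs. Opposite signs of the changes were also common over all genes with both tests, at 72.7 and 74.6%. Sfrp2 is set beside these as the inhibitor that rose in iPSCs. The 250 bases upstream of the transcription start site (TSS) of Dkk3, Fzd10 and Sfrp2 are printed 5′ to 3′ on the gene's strand in the mm9 build, with every CpG dinucleotide in capitals, since CpG density is compared between the families next. Dkk3 lies at chr7:119302572-119302821 on the minus strand with 13 CpG in this stretch, Fzd10 at chr5:129106731-129106980 on the plus strand with 37, and Sfrp2 at chr3:83569993-83570242 on the plus strand with 16. The Fzd10 and Sfrp2 stretches are identical to those of the RefSeq promoter table.
Dkk3: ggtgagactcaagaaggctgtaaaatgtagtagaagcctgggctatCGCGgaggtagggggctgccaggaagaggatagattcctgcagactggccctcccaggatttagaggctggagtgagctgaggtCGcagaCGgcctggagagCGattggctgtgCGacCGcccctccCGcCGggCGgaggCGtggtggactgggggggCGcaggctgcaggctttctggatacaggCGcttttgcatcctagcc
Fzd10: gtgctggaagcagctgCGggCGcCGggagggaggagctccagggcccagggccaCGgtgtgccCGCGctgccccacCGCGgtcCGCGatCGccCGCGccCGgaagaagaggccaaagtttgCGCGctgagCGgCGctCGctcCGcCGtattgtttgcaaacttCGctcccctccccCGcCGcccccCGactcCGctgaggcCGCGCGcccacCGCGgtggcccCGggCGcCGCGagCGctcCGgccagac
Sfrp2: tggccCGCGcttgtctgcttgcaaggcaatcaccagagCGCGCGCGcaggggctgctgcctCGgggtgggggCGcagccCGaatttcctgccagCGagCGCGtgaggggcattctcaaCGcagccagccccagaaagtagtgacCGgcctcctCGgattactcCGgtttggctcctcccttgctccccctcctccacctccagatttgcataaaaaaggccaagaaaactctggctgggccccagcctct

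All Fzd promoters were CpG-rich and no Dkk promoter was, and the Wnt and Sfrp promoters lay on both sides of the threshold. A promoter was called CpG-rich when its observed over expected CpG within 1000 bp of the TSS was at least 0.6, which held for 36.6% of all 20156 promoters. All 10 Fzd promoters met this, as did 11 of 19 Wnt and 3 of 4 Sfrp promoters, and none of the 4 Dkk promoters did. The median ratio was 0.782 for Fzd, 0.616 for Wnt, 0.635 for Sfrp and 0.454 for Dkk genes, against 0.502 over all promoters. Dkk1, Dkk2 and Dkk3, at 0.433, 0.483 and 0.474, were near the median of all promoters, and Dkk4 was at 0.293. The letters CTTTGAT, a core of Tcf/Lef binding, were searched on both strands of the 250 bases upstream and were held by 2 of the 37 genes, Wnt8a and Dkk4, and by 2.73% of all promoters. The promoter windows of the members did not overlap, and the nearest TSS of any other gene lay 3345 bp away. Wnt1 and Wnt10b on chromosome 15 lay 11707 bp apart, Wnt3a and Wnt9a on chromosome 11 16179 bp, Wnt6 and Wnt10a on chromosome 1 20127 bp, and Wnt3 and Wnt9b on chromosome 11 24354 bp.

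**Figure D1:**
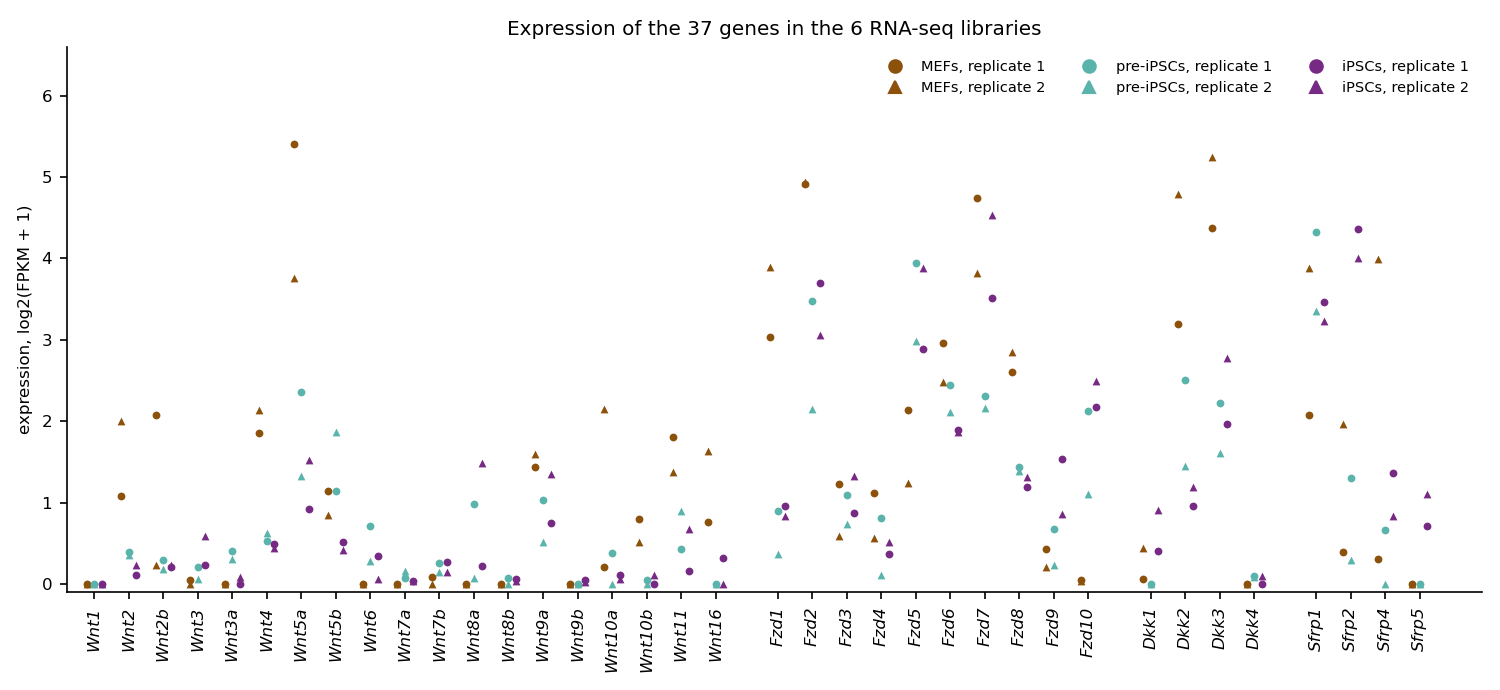
Expression of each of the 37 genes as log2(FPKM + 1) in the 6 RNA-seq libraries, with brown for MEFs, teal for pre-iPSCs and purple for iPSCs, and circles for replicate 1 and triangles for replicate 2. Wnt5a stood above all other Wnt genes in MEFs at 41.4 and 12.6 FPKM, and no Wnt gene passed 1.87 FPKM in iPSCs.

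Few Wnt ligands were expressed, and MEFs held most of what there was. The FPKM of the 19 Wnt genes summed to 55.4 and 29.5 in the MEF libraries, 10.4 and 7.18 in the pre-iPSC libraries and 3.97 and 7.78 in the iPSC libraries, so that the MEF libraries lay above the other 4. Wnt5a, a ligand best known for β-catenin-independent signalling, made up 74.7 and 42.6% of the MEF sums and 22.4 and 24.1% of the iPSC sums. In pre-iPSC replicate 2 Wnt5b was the largest part instead, at 37.0%. Of the 37 genes, 18 reached 1 FPKM in each MEF library, 14 and 11 in the pre-iPSC and 11 and 15 in the iPSC libraries, while 51.4 to 54.5% of all genes did so. For tests, log2(FPKM + 1) was compared in limma with the expression table as a term, and a gene was called at a Benjamini-Hochberg adjusted p below 0.05 and at least a 2-fold change. This scale understates the change of low genes. Genes whose 6 libraries averaged under 0.5 FPKM were left out, so that 24 of the 37 genes were tested (9 Wnt, 10 Fzd, 2 Dkk and 3 Sfrp). The 13 others, 10 of them Wnt genes, never passed 1.79 FPKM, and Wnt1 was listed at 0 in all 6 libraries.

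Between MEFs and pre-iPSCs, 8 of the 24 genes were called, 1 higher and 7 lower, and 16.4% of the 12401 genes tested were (7.39% higher, 9% lower). The median log2 change of the 24 was -0.96, against -0.04 over all genes. Between pre-iPSCs and iPSCs, 1 gene was called, higher, where 8.62% of all genes were (3.91% higher, 4.71% lower), and the median was -0.02 against -0.09. Between MEFs and iPSCs, 11 were called, 2 higher and 9 lower, where 25.9% of all genes were (10.3% higher, 15.5% lower), with medians of -0.99 and -0.14. These comparisons share libraries and are not independent of each other. The filter on the mean also shaped the medians of the 24 genes in the comparisons with MEFs. Wnt2, Wnt2b, Wnt4, Wnt10a, Wnt11, Wnt16 and Fzd4 passed it only through the MEF libraries, since their other libraries alone averaged below it. Of these, Wnt2, Wnt4 and Wnt11 are among the genes called lower. Fzd10, called higher, passed only through the pre-iPSC and iPSC libraries. The filter fixed the direction of these calls, so the split into higher and lower cannot be read as a result. Wnt8a and Sfrp5, at 0 in MEFs, were left out. The part of the filter in these medians was not tested. Quantile normalization moved the median of all genes between MEFs and iPSCs from -0.14 to 0.03, and the 24 genes then stood 1.16 below that median in place of 0.85. Without the filter on low values limma called 0 of the 37 genes in each of the 3 comparisons. Of all 20156 genes it called 0, 170 and 549, so that all calls of members rest on the filter. With the filter, 13, 4 and 14 of the 24 genes were at an unadjusted p below 0.05 in limma. Of all 12401 genes tested, 3892, 2684 and 4871 were. Under quantile normalization 9 genes were called lower and none higher in pre-iPSCs, since Fzd10 lost its call, where 8.51% of all genes were called lower and 7.43% higher. With 2 libraries a group an exact permutation test cannot fall below p = 0.33, and the study's methods call the libraries biological replicates without saying which clones or cultures they came from, so p-values measure only the spread between these libraries, part of which may be technical.

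**Figure D2:**
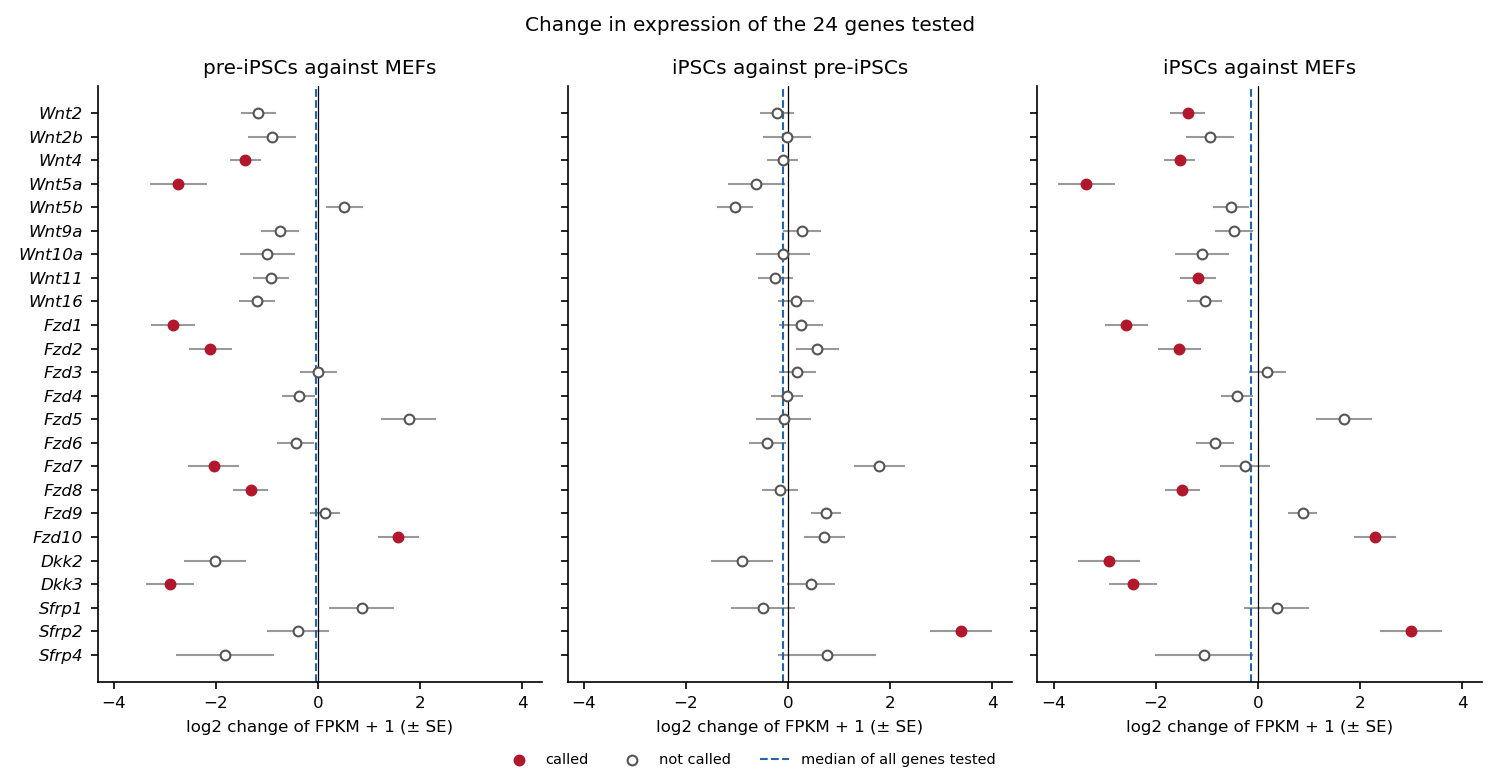
Log2 change of FPKM + 1 with its standard error for the 24 genes tested in the 3 comparisons, red where called and open where not, with the dashed line at the median of all 12401 genes. The called genes lie mostly left of the line in both comparisons with MEFs, 7 of 8 and 9 of 11, and only Sfrp2 was called between pre-iPSCs and iPSCs. The filter on the mean fixed the direction of Wnt2, Wnt4, Wnt11 and Fzd10 against MEFs.

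Among the ligands, Wnt5a had the largest change. It was at 41.4 and 12.6 FPKM in the MEF libraries, 4.12 and 1.51 in the pre-iPSC libraries and 0.889 and 1.87 in the iPSC libraries. The MEF libraries lay above all others, in each of the 2 expression tables, and MEF replicate 1 was far above replicate 2. Wnt5a fell by 2.74 on the log2 scale in pre-iPSCs (SE 0.56, limma adjusted p = 0.0166) and fell by 3.36 in iPSCs against MEFs (SE 0.56, limma adjusted p = 0.00605). Wnt4, a ligand of kidney and gonad development, was at 2.63 and 3.41 FPKM in the MEF libraries, 0.436 and 0.537 in the pre-iPSC libraries and 0.400 and 0.362 in the iPSC libraries. Its MEF values did not overlap with the rest, and it fell by 1.43 in pre-iPSCs and fell by 1.53 in iPSCs (SE 0.30 for each, limma adjusted p = 0.0194 and 0.0111). Wnt4 passed the filter on the mean only through its MEF libraries, which fixed the direction of these calls.

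Wnt2 and Wnt11 were called only against iPSCs. Wnt2, a canonical ligand of the lung and placenta, was at 1.12 and 3.01 FPKM in the MEF libraries, 0.314 and 0.280 in the pre-iPSC libraries and 0.0753 and 0.171 in the iPSC libraries. The values did not overlap between any cell types. It fell by 1.38 from MEFs to iPSCs (SE 0.34, limma adjusted p = 0.0237), and the change to pre-iPSCs, -1.17, missed the threshold at an adjusted p of 0.0557. Wnt11, which acts in cell movements of gastrulation, was at 2.49 and 1.59 FPKM in the MEF libraries, 0.349 and 0.855 in the pre-iPSC libraries and 0.112 and 0.601 in the iPSC libraries. MEFs were again highest, and it fell by 1.17 to iPSCs (SE 0.35, limma adjusted p = 0.0467). Wnt2 and Wnt11 also passed the filter on the mean only through their MEF libraries, which fixed the direction of their calls. Over the 9 Wnt genes tested, 8 had a negative change in pre-iPSCs and 9 in iPSCs against MEFs, and the exception in pre-iPSCs was Wnt5b at 0.52. The medians over all genes were also below 0, at -0.04 and -0.14. The filter on the mean shaped these signs. Wnt16 averaged 0.509 FPKM through its MEF libraries and was tested, while Wnt8a, at 0 in MEFs, averaged 0.496 and was left out. The signs therefore cannot be read as a result about the family.

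The leading Frizzled receptor differed between cell types. The FPKM of the 10 Fzd genes summed to 80.2 and 70.0 in the MEF libraries, 41.4 and 21.1 in the pre-iPSC libraries and 40.3 and 55.6 in the iPSC libraries. Fzd2 was the largest part in MEFs at 36.3 and 42.3% and Fzd5 in pre-iPSCs at 34.9 and 32.8%, and in iPSCs Fzd2 led replicate 1 with 29.8% and Fzd7 replicate 2 with 39.9%. Fzd1 was at 7.21 and 13.9 FPKM in the MEF libraries, 0.865 and 0.289 in the pre-iPSC libraries and 0.936 and 0.786 in the iPSC libraries. It was below 1 FPKM in every library other than MEFs, and fell by 2.84 in pre-iPSCs and fell by 2.58 in iPSCs (SE 0.43 for each, limma adjusted p = 0.00583 and 0.00604). Fzd2, a receptor of Wnt5a among others, was at 29.1 and 29.6 FPKM in the MEF libraries, 10.1 and 3.42 in the pre-iPSC libraries and 12.0 and 7.37 in the iPSC libraries. The MEF libraries lay above the rest, and it fell by 2.11 in pre-iPSCs and fell by 1.54 in iPSCs (SE 0.42 for each, limma adjusted p = 0.0152 and 0.0343). Over 10 alternative runs, which changed a setting or left out 1 library, 4 and 7 lost these calls.

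Fzd8, at 5.10 and 6.22 FPKM in the MEF libraries, 1.70 and 1.62 in the pre-iPSC libraries and 1.29 and 1.49 in the iPSC libraries, had replicates close together and no overlap between MEFs and the rest. It fell by 1.32 in pre-iPSCs and fell by 1.48 in iPSCs (SE 0.35 for each, limma adjusted p = 0.0408 and 0.0202). Of the same 10 alternative runs, 8 and 4 lost these calls. Fzd7, a receptor known to be prominent in pluripotent cells, was at 25.7 and 13.1 FPKM in the MEF libraries, 3.94 and 3.46 in the pre-iPSC libraries and 10.4 and 22.2 in the iPSC libraries. Only the pre-iPSC libraries stood apart, and it fell by 2.05 from MEFs to pre-iPSCs (SE 0.50, limma adjusted p = 0.0319). This call was lost in 4 of the 10 alternative runs. The change of 1.79 from pre-iPSCs to iPSCs missed the threshold (SE 0.50, limma adjusted p = 0.0735), and iPSCs against MEFs gave -0.25 with an adjusted p of 0.746.

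Fzd10 ran the other way. It was at 0.0334 and 0.0259 FPKM in the MEF libraries, 3.37 and 1.15 in the pre-iPSC libraries and 3.53 and 4.61 in the iPSC libraries, with no overlap between the MEF libraries and the others. It rose by 1.58 in pre-iPSCs (SE 0.41, limma adjusted p = 0.0395) and by 2.29 in iPSCs (SE 0.41, limma adjusted p = 0.00776). Fzd10 passed the filter on the mean only through the pre-iPSC and iPSC libraries, which fixed the direction of these calls. Of the same 10 alternative runs, 6 and 3 lost these calls. Fzd5, a receptor needed for yolk sac and placental vessels, was at 3.41 and 1.37 FPKM in the MEF libraries, 14.5 and 6.94 in the pre-iPSC libraries and 6.39 and 13.8 in the iPSC libraries. Every pre-iPSC and iPSC library was above both MEF libraries, with log2 changes of 1.78 and 1.69 that missed the threshold (SE 0.54 for each, limma adjusted p = 0.0673 and 0.0577). Fzd6, a receptor of planar cell polarity, was at 6.75 and 4.58 FPKM in the MEF libraries, 4.46 and 3.33 in the pre-iPSC libraries and 2.70 and 2.64 in the iPSC libraries, and no comparison of it passed. Fzd3, Fzd4 and Fzd9 stayed between 0.0770 and 1.89 FPKM and were not called.

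Both expressed Dkk genes were highest in MEFs. Dkk3, a divergent member of the family, was at 19.7 and 37.0 FPKM in the MEF libraries, 3.67 and 2.06 in the pre-iPSC libraries and 2.91 and 5.87 in the iPSC libraries. Dkk2, an inhibitor at Lrp6, was at 8.12 and 26.8 FPKM in the MEF libraries, 4.68 and 1.74 in the pre-iPSC libraries and 0.950 and 1.29 in the iPSC libraries. Neither gene overlapped between MEFs and the other cell types. Dkk3 fell by 2.89 in pre-iPSCs and fell by 2.44 in iPSCs against MEFs (SE 0.47 for each, limma adjusted p = 0.00760 and 0.0101). Dkk2 fell by 2.91 in iPSCs (SE 0.61, limma adjusted p = 0.0134) and its change of -2.01 in pre-iPSCs missed the threshold at 0.0648. Dkk1 and Dkk4 were too low to test, at 0.884 FPKM or less.

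The Sfrp genes gave the single call between pre-iPSCs and iPSCs. Sfrp2, a secreted Wnt-binding protein, was at 0.310 and 2.92 FPKM in the MEF libraries, 1.46 and 0.223 in the pre-iPSC libraries and 19.5 and 15.1 in the iPSC libraries, where it made up 61.5 and 59.3% of the Sfrp sum. The iPSC libraries stood apart, and the MEF and pre-iPSC values overlapped. It rose by 3.39 from pre-iPSCs (SE 0.61, limma adjusted p = 0.0172), a 10.5-fold change on the FPKM + 1 scale, and rose 8.02-fold from MEFs on that scale (SE 0.61 on the log2 scale, limma adjusted p = 0.0122). Sfrp1 was at 3.22 and 13.8 FPKM in the MEF libraries, 19.0 and 9.24 in the pre-iPSC libraries and 10.0 and 8.42 in the iPSC libraries, and the cell types overlapped. Sfrp4 was at 0.239 and 14.9 FPKM in the MEF libraries, 0.579 and 0 in the pre-iPSC libraries and 1.57 and 0.786 in the iPSC libraries, so that its high value rested on MEF replicate 2. Neither was called in any comparison. Sfrp5 was listed at 0 in the 4 MEF and pre-iPSC libraries and at 0.636 and 1.15 FPKM in iPSCs.

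The genes that were highest in MEFs moved together with the fibroblast list, and what the feeder cells gave to their level in pre-iPSCs and iPSCs was not tested. In these bulk libraries fewer cells of a type and less RNA per cell cannot be told apart. Single libraries carried several calls. Of the 10 alternative runs, 4 lost the call of Wnt2, 4 that of Wnt11 and 4 that of Sfrp2 against pre-iPSCs. The calls of Wnt4, Wnt5a, Fzd1, Dkk2 and Dkk3, and of Sfrp2 against MEFs, were each lost in 1 to 3 runs. Without pre-iPSC replicate 2 the calls between MEFs and pre-iPSCs fell from 8 to 2 (Fzd1 and Fzd10), and the share of all genes called fell from 16.4 to 8.27%. Without iPSC replicate 1 or replicate 2 those between MEFs and iPSCs fell from 11 to 0 and 1 (Wnt5a), and those of all genes from 25.9 to 5.28 and 9.35%. Sfrp2 lost its call against pre-iPSCs without either of these or without pre-iPSC replicate 2, where 0.734, 0.29 and 5.66% of all genes were called. Between pre-iPSCs and iPSCs 3 genes (Fzd7, Sfrp2 and Wnt5b) were called without either MEF replicate, whose spread enters the fit, as were 17.2 and 17.1% of all genes.

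Beyond the 37 genes, the other parts of the pathway were read from 3 lists. Of 29 surface partners and secreted modulators in the tables, 20 were tested, and 4 rose and 5 fell from MEFs to pre-iPSCs, 1 rose and 2 fell from pre-iPSCs to iPSCs, and 3 rose and 5 fell from MEFs to iPSCs. Of all genes 7.39, 3.91 and 10.3% were called higher and 9, 4.71 and 15.5% lower in these comparisons. The median changes were 0.26, -0.30 and -0.62, beside -0.04, -0.09 and -0.14 over all genes. The genes that act on the ligands before release changed in opposite directions. Porcn, the acyltransferase that attaches the lipid to Wnt proteins, was at 1.51 and 3.98 FPKM in the MEF libraries, 39.3 and 50.1 in the pre-iPSC libraries and 14.2 and 22.4 in the iPSC libraries. It rose by 3.68 from MEFs to pre-iPSCs (SE 0.36, limma adjusted p = 0.00147) and by 2.41 to iPSCs (SE 0.36, limma adjusted p = 0.00389). Wls, which carries Wnt proteins to the cell surface, was at 102 and 99.3 FPKM in the MEF libraries, 9.31 and 4.28 in the pre-iPSC libraries and 3.37 and 10.3 in the iPSC libraries. It fell by 3.79 in pre-iPSCs and fell by 3.86 in iPSCs (SE 0.55 for each, limma adjusted p = 0.00505 and 0.00344).

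The co-receptor Ryk, at 81.4 and 97.8 FPKM in MEFs, fell by 1.78 in pre-iPSCs (SE 0.33, limma adjusted p = 0.0119), and Rspo2, a secreted enhancer of Wnt signalling, at 3.56 and 6.05 FPKM in MEFs and at most 0.144 elsewhere, fell by 2.41 (SE 0.33, limma adjusted p = 0.00436). The glypican Gpc3 was at 8.47 and 18.3 FPKM in the MEF libraries, 1.13 and 1.75 in the pre-iPSC libraries and 17.9 and 26.0 in the iPSC libraries. It had its low point in pre-iPSCs, as Fzd7 did, and rose by 3.22 from there to iPSCs (SE 0.37, limma adjusted p = 0.00348). Dkkl1, a secreted protein related to the Dkk family, was at 0 and 0.101 FPKM in MEFs and rose to 4.47 and 2.19 in the pre-iPSC and 5.37 and 3.69 in the iPSC libraries (log2 change 1.99, SE 0.37, limma adjusted p = 0.0120, and 2.38, SE 0.37, limma adjusted p = 0.00476).

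Of 30 cytoplasmic and nuclear transducers, 29 were tested, and 1, 2 and 4 rose in the 3 comparisons and none fell, where 7.39, 3.91 and 10.3% of all genes were called higher and 9, 4.71 and 15.5% lower. The median changes were 0.09, -0.15 and -0.07, beside -0.04, -0.09 and -0.14 over all genes. Of the 4 Tcf/Lef factors, Tcf7 and Lef1 rose from pre-iPSCs to iPSCs and Tcf7l1 and Tcf7l2 were not called. Tcf7 was at 1.43 and 0.498 FPKM in the MEF libraries, 3.49 and 0.894 in the pre-iPSC libraries and 18.2 and 16.0 in the iPSC libraries, and rose by 2.63 (SE 0.41, limma adjusted p = 0.00951). Lef1 was at 2.23 and 0.0958, 1.17 and 0.475, and 10.4 and 17.1 FPKM, and rose 8.03-fold on the FPKM + 1 scale (SE 0.54 on the log2 scale, limma adjusted p = 0.0170). For both, the iPSC libraries stood above all 4 others. Tcf7l1 was at 25.5 and 10.3 FPKM in the pre-iPSC libraries and 79.4 and 56.5 in the iPSC libraries, a difference of 1.98 (SE 0.51, limma adjusted p = 0.0574). Tcf7l2 differed the other way, at 10.2 and 10.4 FPKM in the pre-iPSC libraries and 2.76 and 3.82 in the iPSC libraries, a difference of -1.41 (SE 0.36, limma adjusted p = 0.0567). The co-repressor Tle4 rose already in pre-iPSCs, by 2.67 (SE 0.42, limma adjusted p = 0.00682), and the Wnt signal relay Dvl2 rose by 1.35 between MEFs and iPSCs (SE 0.33, limma adjusted p = 0.0249).

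Of 24 usual targets of β-catenin, 18 were tested, and 2 rose and 3 fell in pre-iPSCs against MEFs, 5 rose and 2 fell in iPSCs against pre-iPSCs, and 6 rose and 3 fell in iPSCs against MEFs. Of all genes 16.4, 8.62 and 25.9% were called in either direction. The median changes were -0.21, 0.09 and -0.04, beside -0.04, -0.09 and -0.14 over all genes. Tcf7 and Lef1 count here as well, and Notum, Lgr5, Rnf43, Znrf3 and Apcdd1 are also in the list of surface partners and secreted modulators. Notum, which removes the lipid from Wnt proteins, was at 0.102 and 0.0396 FPKM in the MEF libraries, 24.7 and 6.19 in the pre-iPSC libraries and 4.12 and 4.81 in the iPSC libraries, and rose by 3.67 in pre-iPSCs (SE 0.54, limma adjusted p = 0.00536). Wisp1, a secreted matrix-associated protein, at 122 and 95.8 FPKM in MEFs, fell by 5.36 and Fst, an activin antagonist at 68.4 and 128, fell by 4.81 in pre-iPSCs (SE 0.50 and 0.40, limma adjusted p = 0.00132 and 0.00106), and Cd44, a surface adhesion receptor at 95.7 and 85.7 FPKM in pre-iPSCs, fell by 3.59 from there to iPSCs (SE 0.38, limma adjusted p = 0.00259).

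At the promoters, the Wnt genes carried more H3K27me3 than most genes in every library. Reads of nucleosomes called within 1000 bp of the TSS were scaled to RPKM by the unique reads of the library. The median over the 19 Wnt genes was 0.697 and 0.741 RPKM in the MEF libraries, 0.675 and 0.733 in the pre-iPSC libraries and 0.864 and 0.746 in the iPSC libraries. The median over all promoters was 0.182 to 0.259, and over CpG-rich promoters 0.121 to 0.202. In MEFs 18 of the 19 Wnt promoters were above the median of all, the exception being Wnt5a in both replicates, and in pre-iPSCs and iPSCs all 19 were. Between 6 and 11 of the 19 were among the top 5% of promoters in a library. The Fzd promoters held far less, with medians of 0.212 to 0.295 RPKM and none in the top 5%, and the Dkk and Sfrp genes had medians of 0.379 to 0.677 and 0.490 to 0.781, the Sfrp median in MEF replicate 2 being above that of the Wnt genes. These levels are described without a test. The Wnt medians of H3K9me3 and H3 were also above those of all promoters in every library. For H3K9me3 they were 0.394, 0.374 and 0.529 RPKM in MEFs, pre-iPSCs and iPSCs, beside 0.197, 0.218 and 0.265 over all promoters. For H3 they were 1.35 against 0.550 in pre-iPSC replicate 1 and 0.221 against 0.204 in replicate 2. H3K27me3 was not scaled to H3, and whether the excess is particular to it was not tested.

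**Figure D3:**
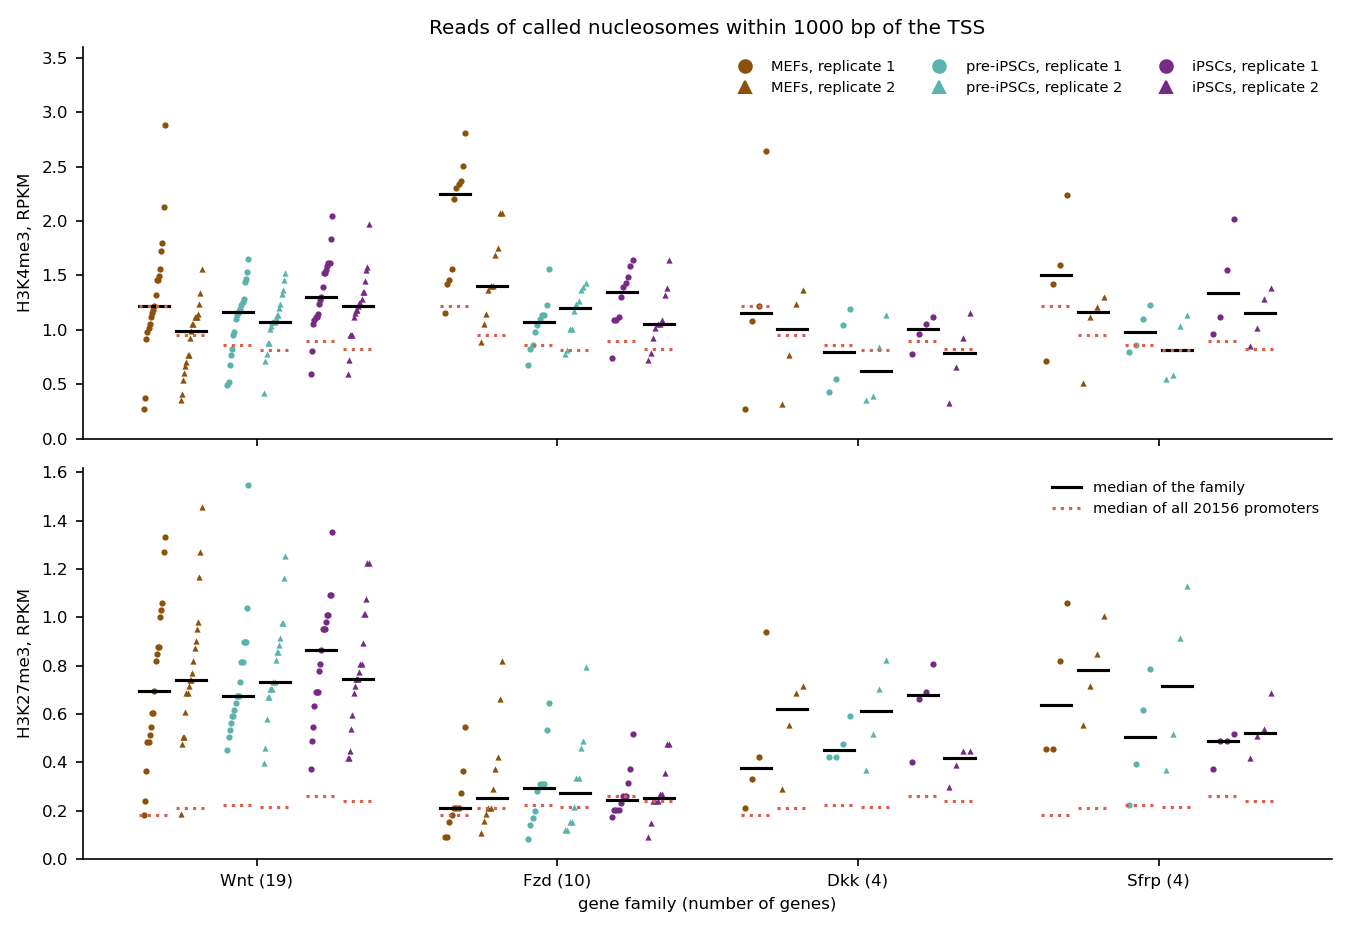
H3K4me3 (top) and H3K27me3 (bottom) within 1000 bp of the TSS in RPKM, each point 1 gene in 1 library, grouped by family, with the family median as a black bar and the median of all 20156 promoters as a dotted line. In H3K27me3 the Wnt medians of 0.675 to 0.864 lie far above the dotted line at 0.182 to 0.259, while the Fzd medians of 0.212 to 0.295 lie near it.

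H3K4me3 showed less contrast between families. Its Wnt medians were 1.22 and 0.987 RPKM in the MEF libraries, 1.16 and 1.07 in the pre-iPSC libraries and 1.30 and 1.22 in the iPSC libraries, beside 1.22 and 0.955, 0.858 and 0.812, and 0.900 and 0.822 over all promoters. The Fzd medians were 2.25 and 1.40 in the MEF libraries, 1.07 and 1.20 in the pre-iPSC libraries and 1.35 and 1.05 in the iPSC libraries. The MEF medians of the Fzd genes were above those of the other cell types, and those of the Wnt genes were not. Over 3000 bp to each side, H3K27me3 at Wnt genes was broad, with a mean of 0.503 to 0.725 RPKM per gene within 250 bp of the TSS, 0.773 to 0.913 at 500 to 1000 bp and 0.721 to 0.848 at 2000 to 3000 bp. At Fzd genes it was 0.127 to 0.225, 0.285 to 0.434 and 0.415 to 0.532 at these distances, ranges being over the 6 libraries. In both families it was lower within 250 bp than at 500 to 1000 bp in all 6 libraries. H3K4me3 at Wnt genes was 0.845 to 1.51, 0.891 to 1.30 and 0.583 to 0.789 RPKM at the 3 distances, and at Fzd genes 0.737 to 1.67, 1.10 to 2.11 and 0.637 to 1.07, lower within 250 bp than at 500 to 1000 bp in all 6 libraries. Histone H3 at Fzd genes was lower there as well in all 6, for example 0.114 and 0.0775 RPKM within 250 bp and 0.187 and 0.181 at 500 to 1000 bp in MEFs. At Wnt genes H3 was lower there in 4 libraries and higher in replicate 1 of pre-iPSCs (1.44 against 1.16 RPKM) and of iPSCs (0.808 against 0.680), and H3K4me3 was higher within 250 bp in 4 of 6. The fuzziness of the called nucleosomes, the spread of reads around the dyad, was averaged over the calls of at least 2 reads within 1000 bp of the TSS. At the 37 genes this mean was 24.7 to 28.3 bp for H3K27me3 and 27.8 to 30.8 bp for H3K4me3. Over the calls at all promoters it was 25.1 to 25.6 and 27.7 to 29.2 bp.

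**Figure D4:**
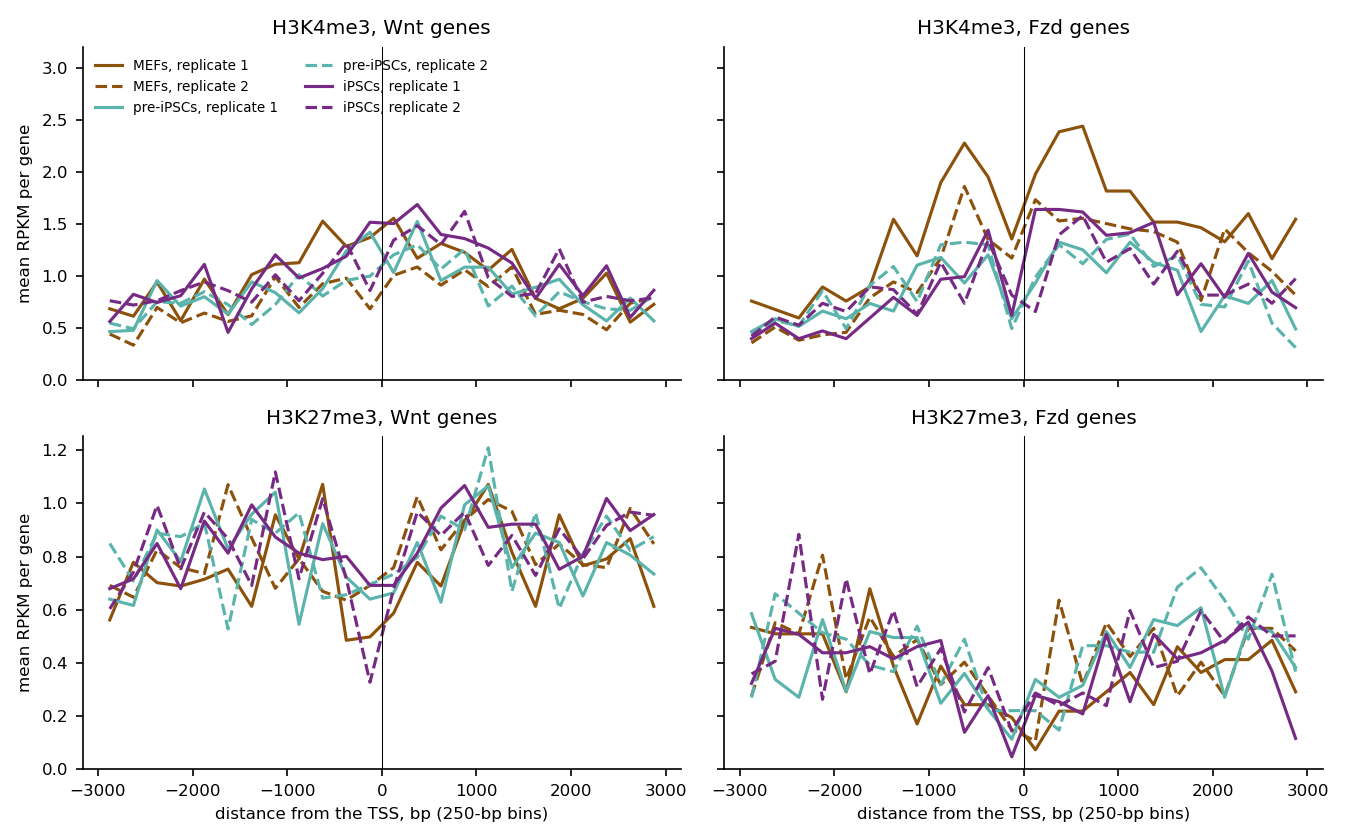
Mean RPKM per gene of H3K4me3 (top) and H3K27me3 (bottom) by distance from the TSS in bins of 250 bp, for the 19 Wnt genes (left) and the 10 Fzd genes (right), with solid lines for replicate 1 and dashed for replicate 2. Within 250 bp of the TSS H3K27me3 is at 0.127 to 0.225 RPKM at Fzd genes and at 0.503 to 0.725 at Wnt genes, in both below its level at 500 to 1000 bp in all 6 libraries.

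Both marks together were rare at the threshold used. With the threshold of 1 RPKM in both replicates, H3K4me3 was present at 23 of the 37 genes in the MEF libraries, 19 in the pre-iPSC libraries and 24 in the iPSC libraries, and at 46.2, 28.8 and 27.3% of all promoters. H3K27me3 passed it at Wnt1 and Wnt7b in MEFs, Wnt7b in pre-iPSCs, and Wnt7b and Wnt10b in iPSCs, and at 0.705, 0.392 and 0.238% of all promoters. Wnt7b in pre-iPSCs and Wnt7b and Wnt10b in iPSCs passed for both marks, no member did so in MEFs, and 0.104, 0.0794 and 0.124% of all promoters did. Wnt7b held 35 and 55 H3K27me3 reads in the MEF libraries, 55 and 41 in the pre-iPSC libraries and 38 and 34 in the iPSC libraries. These counts moved with the scaling, since division by reads in calls in place of unique reads gave 3, 6 and 4 members with both marks and 0.987, 0.774 and 1.02% of all promoters.

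Across the 37 genes, those with more H3K27me3 were less expressed. Spearman's rho between mean RPKM and mean FPKM was -0.73, -0.68 and -0.77 for MEFs, pre-iPSCs and iPSCs, beside -0.52, -0.43 and -0.40 over all 20156 promoters. Within the 19 Wnt genes rho was -0.59, -0.59 and -0.64, and within the 10 Fzd genes -0.84, -0.84 and -0.71. Within the 4 Dkk genes it was -0.8, 0 and 0.4, and within the 4 Sfrp genes -0.8, -0.8 and -0.2. The part of differences between families in the rho of the 37 genes was not tested. For H3K4me3 rho across the 37 genes was 0.75, 0.09 and -0.06, beside 0.76, 0.70 and 0.62 over all. The points share libraries and differ in base composition, and genes are not independent replicates. For H3K4me3 the MEF value for the members was close to that for all promoters, and the values of pre-iPSCs and iPSCs were near 0.

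H3K4me3 rose in iPSCs against MEFs at 7 Wnt genes and 1 Sfrp gene. Reads were tested in edgeR by quasi-likelihood with trimmed-mean (TMM) scaling, and a promoter was called at a Benjamini-Hochberg adjusted p below 0.05. In pre-iPSCs against MEFs 2 of the 37 genes were called, both higher, where 3.85% of 17700 promoters were called (3.05% higher, 0.797% lower). In iPSCs against MEFs 8 were called, all higher, where 13.7% were (9.74% higher, 4.01% lower), and the 8 were 7 of the 19 Wnt genes and Sfrp5. The median log2 change of the 19 Wnt genes was 0.47 and 0.70 in these comparisons and that of the Fzd genes -0.35 and -0.23, beside -0.01 and -0.03 over all promoters. Between pre-iPSCs and iPSCs edgeR called no member and 0% of all promoters, with 2 members and 1581 promoters at an unadjusted p below 0.05, and DESeq2 called none either.

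Wnt8a had 8 and 13 H3K4me3 reads in the MEF libraries, 32 and 22 in the pre-iPSC libraries and 26 and 22 in the iPSC libraries. MEFs were lowest without overlap, and the mark rose by 1.66 in pre-iPSCs (SE 0.39, edgeR adjusted p = 0.00901) and 1.48 in iPSCs (SE 0.40, edgeR adjusted p = 0.0104). Wnt7a, a ligand of the nervous system and female tract, had 31 and 22 reads in the MEF libraries, 37 and 47 in the pre-iPSC libraries and 49 and 41 in the iPSC libraries. It rose by 0.99 and 1.06 (SE 0.28 and 0.27, edgeR adjusted p = 0.0321 and 0.00745), while its RNA stayed at or below 0.113 FPKM. Sfrp5 had 21 and 16 reads in the MEF libraries, 36 and 18 in the pre-iPSC libraries and 50 and 31 in the iPSC libraries, and rose by 1.42 in iPSCs against MEFs (SE 0.32, edgeR adjusted p = 0.00246).

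The other 5 were called in iPSCs against MEFs only. Wnt1, the founding ligand of the family, had 33 and 21 reads in the MEF libraries, 38 and 31 in the pre-iPSC libraries and 52 and 37 in the iPSC libraries (log2 change 1.02, SE 0.27, edgeR adjusted p = 0.00960). Its neighbour Wnt10b had 27 and 31 reads in the MEF libraries, 41 and 35 in the pre-iPSC libraries and 50 and 36 in the iPSC libraries (log2 change 0.86, SE 0.27, edgeR adjusted p = 0.0262). In both genes every iPSC library was above every MEF library. Wnt7b had 39 and 19 reads in the MEF libraries, 42 and 33 in the pre-iPSC libraries and 49 and 39 in the iPSC libraries, so that the lower iPSC library equalled the higher MEF library (log2 change 0.91, SE 0.27, edgeR adjusted p = 0.0219). Wnt9b had 30 and 29 reads in the MEF libraries, 48 and 38 in the pre-iPSC libraries and 51 and 38 in the iPSC libraries, with no overlap (log2 change 0.89, SE 0.26, edgeR adjusted p = 0.0194). Wnt2b had 43 and 17 reads in the MEF libraries, 31 and 35 in the pre-iPSC libraries and 59 and 36 in the iPSC libraries, and MEF replicate 1 was above iPSC replicate 2 (log2 change 0.97, SE 0.28, edgeR adjusted p = 0.0181).

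These calls depended on the scaling and on single libraries. Without TMM scaling the median of all promoters moved to -0.39 in pre-iPSCs and -0.37 in iPSCs against MEFs, and the members called became 1 higher and 2 lower, and 2 higher and 3 lower, where 7.68 and 18.4% of all promoters were called, 1.34 and 4.87% higher and the rest lower, although the Wnt median stayed 0.47 and 0.74 above that of all promoters. DESeq2 called no member in any comparison, and of all promoters it called 0.175% from MEFs to pre-iPSCs, 0% from pre-iPSCs to iPSCs and 0.672% between MEFs and iPSCs. In edgeR no member was called in iPSCs against MEFs without iPSC replicate 1, 5 were without MEF replicate 1 and 4 without MEF replicate 2, where 5.34, 3.27 and 11.4% of all promoters were. In pre-iPSCs against MEFs none was called without MEF replicate 1, and 1 was without MEF replicate 2 or either pre-iPSC replicate, beside 0.535% of all promoters in the first case and 1.19 to 2.87% in the others.

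H3K27me3 could be tested at 32 of the 37 genes, all 19 Wnt but 5 of 10 Fzd genes, since the others had too few reads. A member had 3 to 55 reads in a library, with a median of 20.5. In pre-iPSCs against MEFs 2 genes were called higher and none lower, where 8.1% of 10407 promoters were called (5.01% higher, 3.09% lower). In iPSCs against MEFs 1 was called higher and 1 lower, where 11.2% were (7.33% higher, 3.88% lower). Between pre-iPSCs and iPSCs edgeR called no member where 0.798% of promoters were called (0.663% higher, 0.135% lower), and DESeq2 called none. In edgeR 2 of the 32 members and 1190 of 10407 promoters were at an unadjusted p below 0.05.

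**Figure D5:**
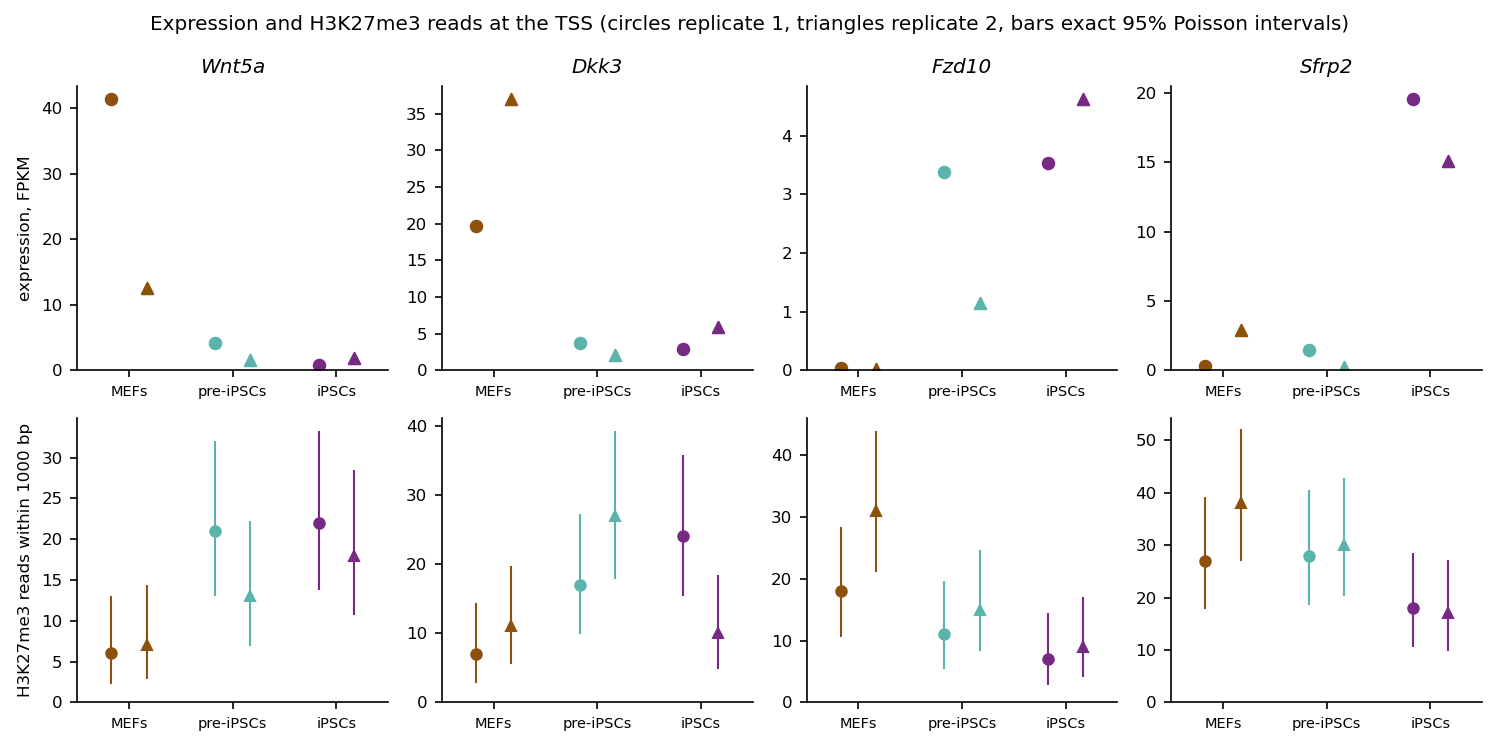
Expression in FPKM (top) and H3K27me3 reads within 1000 bp of the TSS with exact 95% Poisson intervals (bottom) for Wnt5a, Dkk3, Fzd10 and Sfrp2 in each library, circles for replicate 1 and triangles for replicate 2. Wnt5a goes from 6 and 7 reads in MEFs to 22 and 18 in iPSCs as its RNA falls, and Fzd10 from 18 and 31 reads to 7 and 9 as its RNA rises.

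Wnt5a had 6 and 7 H3K27me3 reads in the MEF libraries, 21 and 13 in the pre-iPSC libraries and 22 and 18 in the iPSC libraries. The exact 95% Poisson intervals, which cover counting error only, ran from 2.20 to 13.1 and 2.81 to 14.4 reads in MEFs and from 13.8 to 33.3 and 10.7 to 28.4 in iPSCs. The MEF libraries were lowest without overlap of the counts, and the mark rose by 1.42 in pre-iPSCs (SE 0.46, edgeR adjusted p = 0.0386) and 1.60 in iPSCs (SE 0.44, edgeR adjusted p = 0.0104). Its promoter, CpG-rich by the measure above, held H3K4me3, with 85 and 49 reads in the MEF libraries, 54 and 41 in the pre-iPSC libraries and 42 and 60 in the iPSC libraries and log2 changes of -0.17 and -0.07 that were not called.

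Dkk3 had 7 and 11 H3K27me3 reads in the MEF libraries, 17 and 27 in the pre-iPSC libraries and 24 and 10 in the iPSC libraries. Pre-iPSCs were above MEFs in both replicates, and the mark rose by 1.33 (SE 0.42, edgeR adjusted p = 0.0347). In iPSCs replicate 2 fell back among the MEF values, and the change of 0.91 was not called (SE 0.44, edgeR adjusted p = 0.183). Its H3K4me3 reads, 32 and 39 in the MEF libraries, 18 and 12 in the pre-iPSC libraries and 31 and 20 in the iPSC libraries, gave a change of -0.92 in pre-iPSCs that missed the threshold (SE 0.34, edgeR adjusted p = 0.114).

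Fzd10 had 18 and 31 H3K27me3 reads in the MEF libraries, 11 and 15 in the pre-iPSC libraries and 7 and 9 in the iPSC libraries, in descending order without overlap between the cell types. The mark fell by 1.59 from MEFs to iPSCs (SE 0.41, edgeR adjusted p = 0.00551), and the change of -0.85 to pre-iPSCs was not called (SE 0.37, edgeR adjusted p = 0.154). H3K4me3 was at its promoter in MEFs already, with 43 and 36 reads, 34 and 43 in the pre-iPSC and 53 and 40 in the iPSC libraries. Sfrp2 had 27 and 38 H3K27me3 reads in the MEF libraries, 28 and 30 in the pre-iPSC libraries and 18 and 17 in the iPSC libraries, with iPSCs lowest, and its change of -0.89 against MEFs missed the threshold (SE 0.32, edgeR adjusted p = 0.0615).

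Over the genes with both tests, the sign of the H3K27me3 change was opposite to that of the expression change in 11 of 19 from MEFs to pre-iPSCs, 15 of 19 from pre-iPSCs to iPSCs and 16 of 19 from MEFs to iPSCs. Over all 4591 genes with both tests the signs were opposite in 72.7, 67.1 and 74.6%. The changes had Spearman's rho of -0.40, -0.58 and -0.75 across the 19 genes and -0.60, -0.50 and -0.62 across all 4591, which are given as a description. For H3K4me3 the signs were the same in 14, 10 and 15 of 24 members and in 58.9, 56.2 and 60.4% of all 12202 genes. The H3K27me3 call of Wnt5a in iPSCs was lost without either MEF replicate or without iPSC replicate 1, and that in pre-iPSCs was lost without any 1 of the 4 libraries compared. The call of Dkk3 was lost without either MEF replicate, without pre-iPSC replicate 2 and with the replicate number as a block, which left 1 call in pre-iPSCs against MEFs. The call of Fzd10 was lost without MEF replicate 2 or iPSC replicate 1. DESeq2 called none of the 3 genes, and it called 0.432% of all promoters in pre-iPSCs and 0.183% in iPSCs against MEFs. The 500 bp window gave 0 member calls in both comparisons, where 2.32 and 3.94% of all promoters were called. With no filter on low counts 0 members were called in pre-iPSCs against MEFs, where 3.71% of promoters were, and 3 in iPSCs against MEFs, where 6.08% were.

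H3K9me3 had 1 library per cell type and so no replicate check. Ratios were read for members with at least 20 reads in the higher library, at 2-fold or more. None of 2 such members passed between MEFs and pre-iPSCs, where 11.2% of promoters were past the fold upward and 17.5% downward. Between pre-iPSCs and iPSCs 4 of 5 passed upward (19.9% of promoters upward, 8.85% downward), but all 5 had met the 20 reads only through the iPSC library, which fixed that direction. Between MEFs and iPSCs 4 of 7 passed upward (20.5 and 11.7%), each of the 4 again through the iPSC library. Wnt5a had 3, 8 and 21 reads in the single MEF, pre-iPSC and iPSC libraries, a ratio of 7.06 between iPSCs and MEFs with an exact 95% counting interval of 2.11 to 37.0. Wnt1 had 11, 13 and 26 reads and a ratio of 2.38 (1.14 to 5.35), Wnt11 had 6, 11 and 21 reads and 3.53 (1.38 to 10.7), and Wnt16 had 8, 14 and 23 reads and 2.90 (1.25 to 7.50). Wnt3 passed only against pre-iPSCs, at 29 against 13 reads and a ratio of 2.37 (1.19 to 4.96). Against pre-iPSCs Wnt1 had a ratio of 2.12 (1.05 to 4.50), Wnt5a 2.78 (1.18 to 7.27) and Wnt11 2.03 (0.934 to 4.65). These members were chosen through their iPSC reads. Their intervals, which cover counting error only, therefore cannot be read as a test against 1. These ratios compare libraries, not cell types.

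Histone H3 itself gave no call at any member or at any of 19560 promoters in the 3 comparisons (0%) in edgeR, with 0 members at an unadjusted p below 0.05 and 373, 105 and 296 promoters, and none in DESeq2. The member medians were 0.240 and 0.234 RPKM in the MEF libraries, 1.14 and 0.204 in the pre-iPSC libraries and 0.580 and 0.243 in the iPSC libraries, so that pre-iPSC replicate 1 lay above the other 5 libraries. With the outlying replicate 1 as the only pre-iPSC library, 10 members were called against MEFs, 9 higher (Wnt1, Wnt2b, Wnt4, Wnt5a, Wnt9a, Wnt10a, Wnt10b, Fzd4 and Fzd8) and Dkk4 lower, where 23.4% of 19598 promoters were called.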

How the data were processed

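RNA-seq was measured in 6 libraries and nucleosome ChIP-seq in 21. The authors aligned ChIP-seq reads to mm9 with Bowtie (1.0.1), kept unique reads, shifted them 73 bp to the dyad and called nucleosomes with GeneTrack, and the deposited files give each call's position, its count of reads and its fuzziness, a score of read spread in bp. RNA-seq reads were mapped with TopHat2 (2.0.4), and the authors deposited FPKM values from Cufflinks (2.0.2) in 2 tables, each with 1 library of each cell type. Fragment counts and so the depth behind an FPKM value are not known from these tables.

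Counts of calls within 1000 bp of each TSS were summed and scaled for RPKM to the unique-read totals the authors list for each library. Python 3.11.15 (numpy 2.4.6, pandas 2.3.3, scipy 1.17.1) and R 4.3.3 were used. For expression, limma 3.58.1 was run with a trend on log2(FPKM + 1), cell type and table being the terms, after genes averaging under 0.5 FPKM were removed. Counts were tested with edgeR 4.0.16 (quasi-likelihood, filterByExpr, TMM), and DESeq2 1.42.0 was an alternative. P-values were adjusted over all features tested, and the scripts were tested on simulated data. The other alternatives were a pseudocount of 0.1, no filter on low values, quantile normalization, no TMM, windows of 500 and 2500 bp, calls of at least 2 reads, a threshold of 2 RPKM, scaling to reads in calls, a replicate block and leaving out each library.

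Values in every library are given for genes called in an expression comparison or reaching 5 FPKM in a library, and reads for genes called in a mark, at most 10 per mark. Of each pathway list at most 6 called genes by adjusted p are named. The members and lists were chosen with earlier results of these data known. Promoter sequences were read from the mm9 genome and that of Wnt5a is not reported here, and 25 members lay exactly at a GENCODE start, all within 503 bp of one.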

Additional observations from a re-analysis of the deposited data

How the results depend on the processing

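No member called changed direction under any alternative run for it, and of the repeats of single-gene calls 244 kept their side of the threshold and 137 fell below it. Shares in brackets are of all genes or promoters tested under the same setting. Without the filter on low values limma called 0 members in all 3 expression comparisons (0, 0.843 and 2.72%), and quantile normalization called 2 between pre-iPSCs and iPSCs (9.82%). DESeq2 called 0 members in H3K4me3 and in H3K27me3 in both comparisons with MEFs, where it called at most 0.672% of all promoters. The 2500 bp window gave 6 and 17 H3K4me3 calls and 6 and 5 H3K27me3 calls in pre-iPSCs and iPSCs against MEFs, where 10.1, 24.1, 10.8 and 17.3% of all promoters were called. The 500 bp window gave 5 H3K4me3 calls in iPSCs against MEFs (6.04%) and 0 H3K27me3 calls in both (2.32 and 3.94%), and H3K4me3 without TMM gave 5 in iPSCs against MEFs (18.4%). For H3K27me3 in pre-iPSCs against MEFs, no filter gave 0 calls (3.71%) and calls of at least 2 reads gave 1 (7%), and in iPSCs against MEFs no filter gave 3 (6.08%). Members with both marks numbered 3, 6 and 4 in MEFs, pre-iPSCs and iPSCs when scaled to reads in calls (0.987, 0.774 and 1.02%), 3 in pre-iPSCs with the 500 bp window (0.104%), 0 in pre-iPSCs and iPSCs at 2 RPKM (0.0149 and 0.00992%), and 1 in iPSCs with calls of at least 2 reads (0.109%). The cause of these shifts was not tested.

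Leaving out 1 library at a time, expression calls ranged from 2 to 11 in pre-iPSCs against MEFs (8.27 to 23.1%), 0 to 3 in iPSCs against pre-iPSCs (0.29 to 17.2%) and 0 to 14 in iPSCs against MEFs (5.28 to 29.8%). H3K4me3 calls ranged from 0 to 3 (0.535 to 4.95%) and 0 to 10 (3.27 to 12.5%), and H3K27me3 calls from 0 to 2 (3.15 to 7.18%) and 0 to 2 (3.95 to 9.53%), in pre-iPSCs and iPSCs against MEFs. H3 calls in pre-iPSCs against MEFs ranged from 0 to 10 (0 to 23.4%). Where 1 library was left, it was assumed to vary like the others. The labels tie same-numbered libraries to nothing shared, and their deviations did not correlate in every pair (r from -0.20 to 0.35 in expression), although r was 0.79 in H3 between pre-iPSCs and iPSCs, whose replicate 1 libraries were both high. The replicate block took H3K27me3 calls in pre-iPSCs against MEFs from 2 to 1 (7.38%), with Dkk3 lost, and left the other counts in the marks and H3 as they were. With no replicate block expression gave 10, 1 and 12 calls (16.1, 9.06 and 24.2%).

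A member promoter held a median of 20.5 H3K27me3 and 36 H3K4me3 reads in a library, and 5 Fzd genes were below the filter on H3K27me3 reads. Whether deeper libraries would give more calls was not tested.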

Other observations

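Among the low ligands, several differed widely between the MEF libraries. Wnt2b was at 3.21 FPKM in MEF replicate 1 and 0.171 in replicate 2, Wnt10a at 0.159 and 3.43, and Wnt16 at 0.699 and 2.11. Outside MEFs these 3 genes stayed at or below 0.299 FPKM. Wnt8a was at 0.968 and 0.0508 FPKM in pre-iPSCs and 0.164 and 1.79 in iPSCs and was listed at 0 in MEFs. None of these spreads has a test with 2 libraries a group, and no cause was tested.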
